A study of Mus musculus with 8 samples.

Results

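Cytochrome P450 genes were examined in RNA polymerase II (Pol II) ChIA-PET of mouse liver. The set held every protein-coding gene of the RefSeq annotation on GRCm38.p6 whose symbol is Cyp followed by a digit, except Cyp7a1, Cyp8b1 and Cyp27a1. This gave 96 of 21887 protein-coding genes, or 96 of the 99 genes with such a symbol. The rule used gene symbols and no measured values, but the set was chosen with earlier results of these data known. ChIA-PET pulls down crosslinked chromatin, here with the Pol II antibody 8WG16, and ligates DNA ends held in one complex. Each ligated pair is then sequenced as a paired-end tag (PET), whose ends mark 2 places in the genome. Livers came from wild-type C57BL/6 mice aged 3 to 6 months, kept in 12 hours of light and 12 of darkness and fed freely. They were collected at ZT06 or ZT18, the middle of the day or of the night, and chromatin of 3 to 7 livers was combined for an immunoprecipitation. Experiment 1 (JM08, 4 libraries) and experiment 3 (JM12, 2 libraries) used 1.5 mM EGS and 1% formaldehyde (dual crosslinking), and experiment 2 (JM11, 2 libraries) used 1% formaldehyde alone (single crosslinking). The deposited table marks PETs by experiment and linker and not by library, so day and night are not analysed here, and each experiment is 1 pool without replicates. Where 3 values stand in a row, they are for experiments 1, 2 and 3 in that order.

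Cytochrome P450 enzymes are heme proteins that add oxygen to small molecules. Those of families 1, 2 and 3 oxidise drugs, toxins and other foreign compounds, mainly in hepatocytes; family 4 acts on fatty acids, and others make or break down steroids, bile acid precursors, vitamin D and retinoic acid. Many mouse P450 genes arose by tandem duplication and lie in clusters of near copies, and several are transcribed in one sex or only after a drug or hormone signal. The sex of the mice is not given in the labels.

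The annotated starts of the genes on which the results turn differ in how far their sequence is their own. The promoters below run from 250 bases before to 50 bases after the annotated start (RefSeq, GRCm38.p6), written 5′ to 3′ on the gene's strand. The table of promoters held 75 of the 96 genes, and Cyp2d22, which belongs to the 4 genes with the highest density of PET ends, has no entry. Capitals mark exact matches, on either strand, to 6 motifs: TATAAA (bound by TBP), CAAAGTCCA (by HNF4), GTTAAT (by HNF1), CACGTG (the E-box), TTATGTAA (the D-box) and TTGCGCAA (by C/EBP). Cyp2e1 (chr7:140763569-140763868 on the plus strand), Cyp2d9 (chr15:82452127-82452426 on the plus strand) and Cyp2f2 (chr7:27119705-27120004 on the plus strand) had the highest densities of genes with a promoter entry.
Cyp2e1: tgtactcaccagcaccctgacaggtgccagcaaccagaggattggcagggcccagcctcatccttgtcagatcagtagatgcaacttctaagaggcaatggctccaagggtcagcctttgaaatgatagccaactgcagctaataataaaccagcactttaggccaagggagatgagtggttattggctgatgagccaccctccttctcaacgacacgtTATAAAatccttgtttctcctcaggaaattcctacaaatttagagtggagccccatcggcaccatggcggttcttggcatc
Cyp2d9: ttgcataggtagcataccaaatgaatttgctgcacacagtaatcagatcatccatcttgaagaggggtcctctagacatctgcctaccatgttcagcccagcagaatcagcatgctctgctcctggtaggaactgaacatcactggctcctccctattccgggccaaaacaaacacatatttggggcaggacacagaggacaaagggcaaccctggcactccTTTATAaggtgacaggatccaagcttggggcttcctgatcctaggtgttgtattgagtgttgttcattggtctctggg
Cyp2f2: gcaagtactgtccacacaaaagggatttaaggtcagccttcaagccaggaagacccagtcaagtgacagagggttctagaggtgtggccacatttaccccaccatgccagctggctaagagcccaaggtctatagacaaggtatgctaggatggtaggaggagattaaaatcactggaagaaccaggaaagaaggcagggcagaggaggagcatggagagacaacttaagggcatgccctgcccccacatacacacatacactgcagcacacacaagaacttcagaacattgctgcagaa
Cyp3a41b (chr5:145584681-145584980 on the minus strand) and Cyp3a41a (chr5:145720087-145720386 on the minus strand) held 3 and 2 ends in the 3 experiments together.
Cyp3a41b: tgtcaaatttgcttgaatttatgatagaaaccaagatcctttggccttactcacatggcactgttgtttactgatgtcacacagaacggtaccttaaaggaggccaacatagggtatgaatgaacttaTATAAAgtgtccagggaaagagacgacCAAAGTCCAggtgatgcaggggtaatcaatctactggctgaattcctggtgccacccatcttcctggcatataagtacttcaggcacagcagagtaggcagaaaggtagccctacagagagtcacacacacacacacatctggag
Cyp3a41a: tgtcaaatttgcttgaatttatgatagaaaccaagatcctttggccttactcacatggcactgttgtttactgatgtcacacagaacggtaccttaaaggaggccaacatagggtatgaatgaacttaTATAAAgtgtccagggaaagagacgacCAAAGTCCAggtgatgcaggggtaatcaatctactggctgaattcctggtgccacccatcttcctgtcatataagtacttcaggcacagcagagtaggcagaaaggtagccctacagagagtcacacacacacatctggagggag
Cyp2a4 (chr7:26306942-26307241 on the plus strand) and Cyp2a5 (chr7:26835089-26835388 on the plus strand) were added after their values were seen, as a second pair of near copies.
Cyp2a4: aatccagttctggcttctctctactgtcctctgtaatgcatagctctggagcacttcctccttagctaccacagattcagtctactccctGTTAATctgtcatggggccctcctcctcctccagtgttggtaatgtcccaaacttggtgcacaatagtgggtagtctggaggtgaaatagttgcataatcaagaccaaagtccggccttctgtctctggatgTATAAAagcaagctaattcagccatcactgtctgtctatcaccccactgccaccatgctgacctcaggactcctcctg
Cyp2a5: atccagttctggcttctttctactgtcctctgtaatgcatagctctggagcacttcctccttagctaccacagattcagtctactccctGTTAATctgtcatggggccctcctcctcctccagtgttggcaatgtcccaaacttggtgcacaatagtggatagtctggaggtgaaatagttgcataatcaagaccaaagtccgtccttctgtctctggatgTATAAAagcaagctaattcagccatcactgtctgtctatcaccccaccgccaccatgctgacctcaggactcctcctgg
Of the 281 runs of 20 bases in a promoter, 0% of those of Cyp2e1 and of Cyp2f2 were also found in the promoter of another gene elsewhere in the genome. For Cyp2d9 that share was 43.1%, for Cyp3a41a 92.9%, for Cyp3a41b 89.3%, for Cyp2a4 64.8% and for Cyp2a5 65.1%. The Cyp3a41 pair shared 250 of these runs with each other and the Cyp2a4 and Cyp2a5 pair 182.

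PET ends were counted over each gene and 2.5 kb either side, and divided by the number expected at the mean of the nuclear chromosomes of the same experiment. This quotient is called relative density below, and its interval is the exact 95% Poisson interval, which covers counting error only. Nuclear PETs numbered 474466, 1438852 and 837971, which gave means of 0.349, 1.06 and 0.616 ends per kb. Markers of hepatocytes (6 genes, Alb among them) had median relative densities of 63.5, 8.35 and 13.3, and 5 of 6 were above the mean in every experiment. Markers of Kupffer and other immune cells (5), endothelial cells (4) and stellate cells (4) had medians between 0.803 and 1.66, with 0 genes above the mean in every experiment. Of 4 cholangiocyte markers 1 was above, and of 4 markers of adrenal and gonad cells 0. Fewer cells of a type and less Pol II per cell cannot be told apart in whole liver.

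The typical P450 gene held fewer PET ends than the typical protein-coding gene, while a few held many more. The P450 medians of relative density were 1.02, 0.801 and 1.01, and those of all protein-coding genes 1.22, 1.20 and 1.42. The lowest P450 value was 0 each time, and the highest values were 59.1, 4.45 and 8.84. A gene was called above the nuclear mean when the lower bound of its interval exceeded 1, and below it when the upper bound was under 1. In every experiment 9 of the 96 genes (9.38%) were above, beside 14.7% of all protein-coding genes. They were Cyp2e1, Cyp2d9, Cyp2f2, Cyp2d22, Cyp2d26, Cyp3a11, Cyp1a2, Cyp2u1 and Cyp3a13. All 9 belong to families 1 to 3, which hold 59 of the 96 genes when Cyp2r1, a vitamin D gene, is left out. Without experiment 2 the count was 21, which by the rule must include these 9. Below the mean in every experiment were 16 genes (16.7%), beside 4.63% of all genes, and they belonged to the Cyp2a, Cyp2b, Cyp2c, Cyp3a and Cyp4a subfamilies, 14 of them to families 1 to 3. Taken singly, the experiments had 30, 12 and 25 P450 genes above the mean, beside 33.6%, 31.8% and 46.8% of all genes. Over the 96 genes the Spearman correlation of relative density was 0.72 for experiments 1 and 2, 0.80 for 1 and 3 and 0.80 for 2 and 3, a description of genes that share neighbourhoods and not a test.

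**Figure D1:**
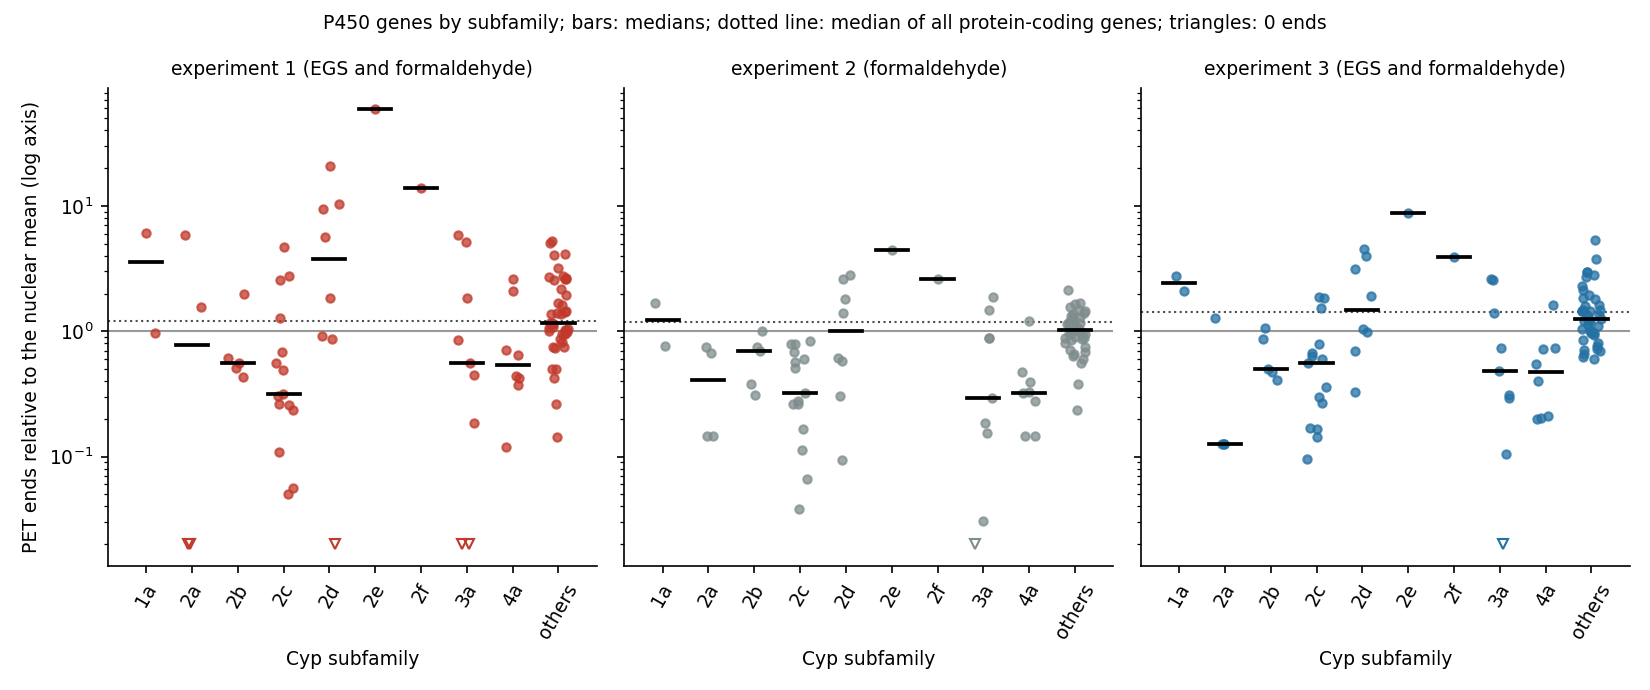
Relative density of PET ends (log axis) of each P450 gene by subfamily in the 3 experiments, with bars at subfamily medians, a solid line at the nuclear mean, a dotted line at the median of all protein-coding genes and triangles for genes with 0 ends. The bars of Cyp2e and Cyp2f, each a single gene, lie above the medians of the other subfamilies, while the medians of Cyp2c (0.317, 0.323 and 0.557) and Cyp3a (0.563, 0.295 and 0.478) lie below 1 in every experiment.

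Cyp2e1, which oxidises ethanol, acetone and paracetamol, had the highest value of the family in every experiment. The gene (chr7:140763819-140774990, plus strand) and its flanks held 333, 76 and 88 PET ends. Its relative density was 59.1 (52.9 to 65.8), 4.45 (3.50 to 5.56) and 8.84 (7.09 to 10.9). These placed it at percentile 99.9, 99.5 and 99.5 of all protein-coding genes. The intervals of the 3 experiments did not overlap, and in experiment 1 that of Cyp2e1 overlapped the interval of no other P450 gene. In experiment 2 it overlapped those of Cyp2d9 (1.86 to 4.05) and Cyp2d22 (1.89 to 3.57). In experiment 3 it overlapped that of Cyp26a1 (3.59 to 7.69). Within an experiment the 2 linker subsets gave similar values in the dual-crosslinked pools: 57.2 and 60.4 in the first, 9.50 and 8.24 in the last. With formaldehyde alone they were 7.15 (4.75 to 10.3) and 3.64 (2.69 to 4.83). Of the 333 ends, 54.7% belonged to PETs with both ends within 8 kb of each other, a class meant to hold fragments joined to themselves. Counting only PETs between different chromosomes left relative densities of 33.5, 3.89 and 6.39. The window of Cyp2e1 also overlaps that of Syce1, a meiotic gene.

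Cyp2d9 and Cyp2f2 followed by geometric mean over the experiments, though Cyp26a1 and Cyp2d22 had higher values than both in experiment 3, and without experiment 1 Cyp2d22 ranked ahead of both. Cyp2f2, known for activating naphthalene in airway and liver cells, lies at chr7:27119955-27133660 on the plus strand and held 91, 52 and 45 ends. Its relative density was 14.0 (11.2 to 17.1), 2.63 (1.96 to 3.45) and 3.91 (2.85 to 5.23). Cyp2d9, a steroid hydroxylase of the Cyp2d cluster (chr15:82452377-82456827, plus strand), held 68, 28 and 23 ends. Its relative density was 20.6 (16.0 to 26.2), 2.80 (1.86 to 4.05) and 3.95 (2.51 to 5.93). The intervals of the pair overlapped in all 3 experiments, so no order between them is given. In experiment 2 the intervals of Cyp2d9, Cyp2f2 and Cyp2d22 overlapped one another.

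Of the other leading genes, Cyp2d22, which lies at the edge of the Cyp2d cluster, had relative densities of 5.65 (3.78 to 8.11), 2.63 (1.89 to 3.57) and 4.52 (3.24 to 6.13) from 29, 41 and 41 ends. Cyp2d26 had relative densities of 9.52, 1.82 and 3.13, from 31, 18 and 18 ends. Cyp2d10 had 10.4, 1.41 and 1.90, and its intervals in experiments 2 (0.770 to 2.36) and 3 (0.948 to 3.40) included 1. Cyp3a11, the main drug-inducible Cyp3a enzyme of mouse liver, had 5.88 (4.51 to 7.54), 1.88 (1.43 to 2.42) and 2.63 (1.95 to 3.48), from 62, 60 and 49 ends. Cyp2u1, a fatty acid hydroxylase gene, had 4.15 (2.73 to 6.04), 2.13 (1.53 to 2.88) and 2.96 (2.05 to 4.13), from 27, 42 and 34 ends. Cyp1a2, which oxidises caffeine and aromatic amines, had 6.12, 1.70 and 2.77, from 25, 21 and 20 ends. Its neighbour Cyp1a1, which is known to depend on ligands of the aryl hydrocarbon receptor, had 0.961 (0.386 to 1.98), 0.770 (0.448 to 1.23) and 2.10 (1.38 to 3.05). The intervals of the pair did not overlap in experiment 1 and overlapped in experiments 2 and 3. The windows of Cyp1a1 and Cyp1a2 overlap, so ends between them count for both.

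**Figure D2:**
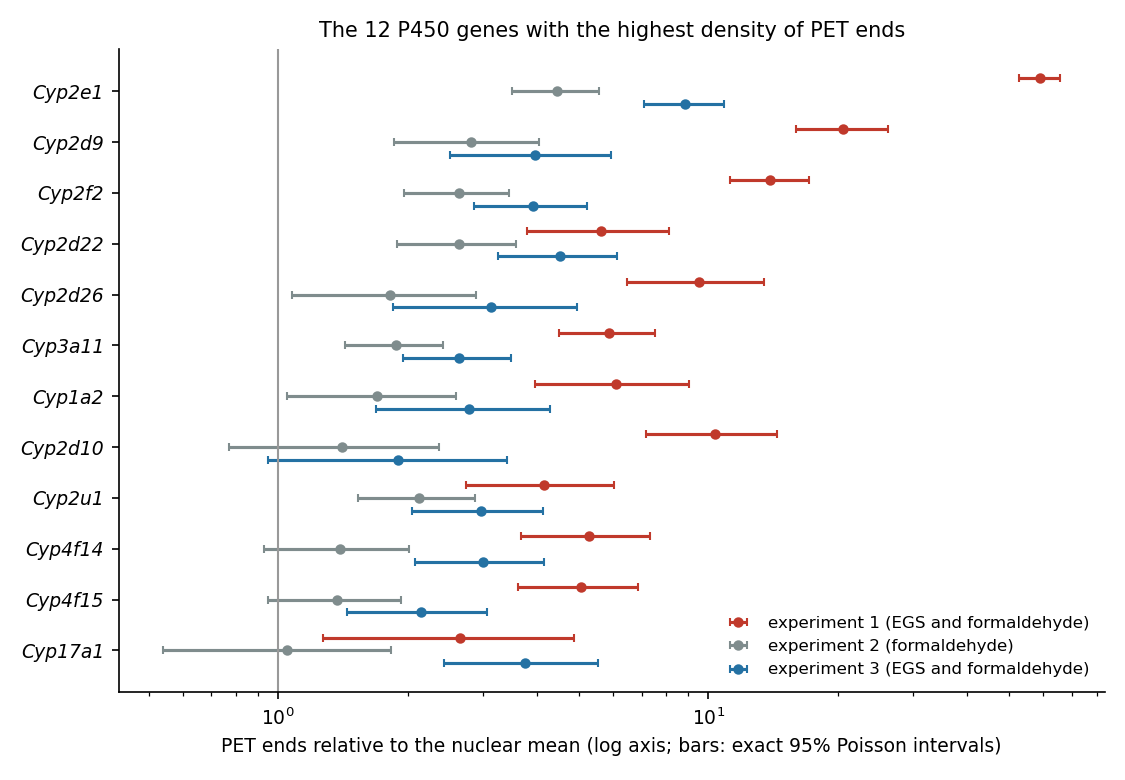
Relative density of PET ends (log axis) of the 12 P450 genes with the highest geometric mean over the 3 experiments, with exact 95% Poisson intervals as bars. Experiment 1 is the highest value for each gene but Cyp17a1, whose highest value is 3.75 in experiment 3, and Cyp2e1 stands at 59.1 in experiment 1.

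Cyp1a (2 genes) had medians of 3.54, 1.23 and 2.44 and Cyp2d (8 genes) 3.75, 1.01 and 1.47, below the values of Cyp2e and Cyp2f. The ranges of Cyp1a and Cyp2d overlapped in every experiment, and the highest Cyp2d values (20.6, 2.80 and 4.52) exceeded those of Cyp2f. The 43 genes outside the listed subfamilies had medians of 1.16, 1.03 and 1.24, in experiment 2 above that of Cyp2d. Cyp2b had 0.560, 0.693 and 0.499 (5 genes), Cyp4a had 0.542, 0.323 and 0.472 (8), Cyp3a had 0.563, 0.295 and 0.478 (9), Cyp2c had 0.317, 0.323 and 0.557 (15) and Cyp2a had 0.777, 0.406 and 0.127 (4). The ranges of these 5 subfamilies overlapped in every experiment, so no order among them is given. In Cyp2d 3 of 8 genes were above the mean in every experiment, in Cyp3a 2 of 9, and in Cyp2a, Cyp2b, Cyp2c and Cyp4a 0 of 4, 5, 15 and 8. Below it in every experiment were 8 of 15 Cyp2c genes, 4 of 9 Cyp3a genes, 2 of 8 Cyp4a genes, and 1 each of Cyp2a and Cyp2b.

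The subfamilies with low medians each held 1 to 3 genes above the mean in experiment 1. Cyp2c70, which makes muricholic acids from bile acids, had relative densities of 4.72 (3.63 to 6.02), 0.680 (0.452 to 0.983) and 1.88 (1.37 to 2.51), so it was above the mean with dual crosslinking and below it with formaldehyde alone. Cyp2a12, a steroid and bile acid hydroxylase, had 5.86 (3.83 to 8.59), 0.743 (0.356 to 1.37) and 1.28 (0.612 to 2.35). Cyp4a14, an omega-hydroxylase of fatty acids known as a PPAR alpha target, had 2.11, 1.20 and 1.63 from 11, 19 and 15 ends, with intervals that included 1 in experiments 2 and 3. In experiment 1 its relative Cyp4a32, named after its values were seen, stood higher, with 2.59 (1.66 to 3.85), 0.320 (0.146 to 0.608) and 0.733 (0.379 to 1.28), and the intervals of the pair overlapped there. Cyp2b23 had 1.97, 1.01 and 0.868. Cyp2b10, the drug-inducible Cyp2b gene controlled by the receptor CAR, had 0.507 (0.186 to 1.10), 0.752 (0.496 to 1.09) and 1.05 (0.659 to 1.59), which included 1 in all 3 experiments. Cyp3a25 had 5.13 (3.98 to 6.52) in experiment 1 but 0.884 (0.616 to 1.23) in the next, and in experiment 1 its interval overlapped that of Cyp3a11. It was named after its value was seen.

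At the low end, long genes give the firmest values. Among the 8 P450 genes expecting 20 ends or more in each experiment, the 5 lowest were Cyp2j11, Cyp2j8, Cyp2c39, Cyp2c66 and Cyp2c38. Cyp2c38 had relative densities of 0.110, 0.265 and 0.269, Cyp2c66 had 0.258, 0.279 and 0.167, and Cyp2c39 had 0.265, 0.262 and 0.357. For Cyp2c39 these rest on 21, 63 and 50 ends where 79.2, 240.2 and 139.9 were expected. All 3 lie in the Cyp2c cluster, whose enzymes oxidise arachidonic acid and drugs, and were below the mean in every experiment. Cyp2j8 and Cyp2j11, of the epoxygenase subfamily Cyp2j, had values between 0.503 and 0.973. Cyp2j5 of the same cluster stood higher, with 4.05 (3.09 to 5.23), 1.18 (0.880 to 1.55) and 1.44 (1.01 to 1.98). Cyp3a41a and Cyp3a41b, known as female-predominant genes, held 2, 0 and 0 ends and 0, 1 and 2 ends where at least 10.8 were expected in each experiment. Cyp2a4 held 0, 2 and 1 ends where 4.50, 13.6 and 7.94 were expected, and its near copy Cyp2a5, the coumarin hydroxylase, 7, 2 and 1.

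Many of the genes with few ends have a promoter that is shared with another gene. Of the 12 P450 genes with 50% or more of their promoter 20-mers found in another gene's promoter, 8 were below the mean in every experiment and 0 above. Their median relative densities were 0.33, 0.150 and 0.297. The 40 genes with no shared promoter 20-mer had medians of 1.40, 1.07 and 1.34, with 1 below and 5 above in every experiment. The other genes below the mean in every experiment were 6 with a smaller share and 1 without a promoter entry. Over the 75 genes with a promoter, the Spearman correlation of the shared percentage with relative density in experiment 2 was -0.63, a description across genes that share clusters. The same split ran through the genome: 1258 protein-coding genes with 50% or more shared had a median of 0 in each experiment, and 83.1% of the 1 kb stretches in their windows held no end, against 15.8% for the 12174 genes with none shared. For the P450 genes these shares were 66.2% and 20.6%. Among the 1258 genes, 442 were below the mean in every experiment and 0 above. Among the 12174 genes, 203 were below and 2061 above. No source used here says how tags that align to several places were handled, and its part in these low values was not tested. Cyp3a25 (52.7% shared) is an exception in experiment 1, with 67 ends.

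**Figure D3:**
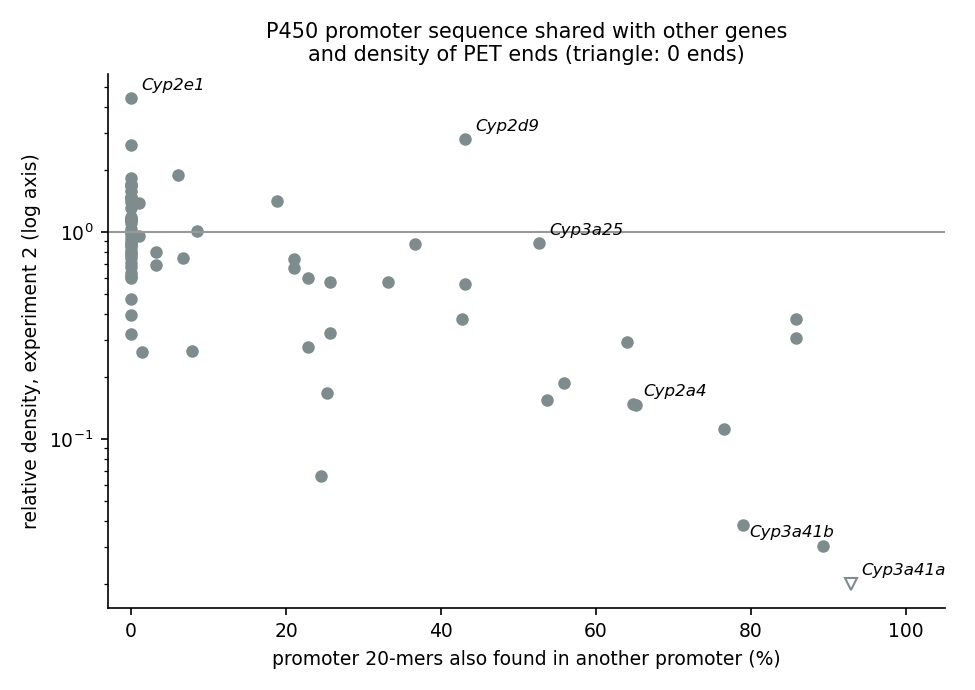
Percentage of promoter 20-mers also found in another gene's promoter (x axis) against relative density in experiment 2 (log y axis) for the 75 P450 genes with a promoter entry, with a triangle for 0 ends. Genes above 60% lie below 0.4, and Cyp2d9 with 43.1% shared lies at 2.80.

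P450 promoters in the table matched some of the 6 motifs more often than promoters in general. TATAAA was found in 32 of 75 genes (42.7%) and in 14.8% of all 17492 protein-coding genes with a promoter of this length. CAAAGTCCA was found in 10 (13.3%) and in 0.520% of all, GTTAAT in 11 (14.7%) and in 7.31%. CACGTG was found in 2 (2.67%) and in 8.91%, TTATGTAA in 0 and in 1.05%, and TTGCGCAA in 0 and in 0.246%. The 10 genes with CAAAGTCCA were Cyp3a11, Cyp3a16, Cyp3a41a, Cyp3a41b, Cyp2c70 and 5 more of Cyp2c, which are tandem copies of 2 subfamilies and so not 10 separate cases. They ranged from Cyp3a11, above the mean in every experiment, to Cyp3a41a. The genes with TATAAA and those with GTTAAT also include tandem copies, Cyp2a4 and Cyp2a5 among them, so they are not separate cases either. In the printed sequences TATAAA begins 31 bases before the annotated start in Cyp2e1, 28 before in Cyp2d9 (reverse strand), 28 before in Cyp2a4 and 29 before in Cyp2a5. In Cyp3a41a and Cyp3a41b it lies 122 bases before, while Cyp2f2 holds none of the 6. A match is a string of letters and not a shown binding site.

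Where in a gene the ends lay differed between the leading genes. In Cyp2e1 they covered the 1 kb either side of the start (relative density 88.9, 14.2 and 8.12), the body (69.4, 3.30 and 12.2) and the last 1 kb (94.7, 6.62 and 11.4), while the 1 kb past the annotated end had 45.9, 1.89 and 3.25. No 100 bases held more than 3.00% of its 333 ends in experiment 1, which lay at 301 different positions. In Cyp3a11 the start was densest, with 28.7, 11.3 and 12.2, against 4.44, 1.30 and 2.10 in the body. In Cyp2d9 the ends gathered beyond the gene: the 1 kb past the annotated end had 91.8, 14.2 and 9.75, from 32, 15 and 6 ends, against 5.73, 2.36 and 5.68 around the start. In Cyp2f2 the body had 17.9, 3.23 and 4.44 and the start only 5.73, 0.945 and 2.44. Cyp2d10, Cyp2d26, Cyp1a2, Cyp4f14 and Cyp4f15 were densest around the start in every experiment, from 15 ends or fewer, except that the last 1 kb of Cyp1a2 was densest in experiment 3 (4.87, against 4.06 around its start). Summed over 74 P450 genes with a strand and a length of 4 kb or more, the start had 5.21, 1.53 and 2.23 and the body 1.47, 0.683 and 0.865. Over 14060 protein-coding genes these were 7.71, 2.40 and 4.35, and 1.13, 1.15 and 1.22. In these profiles the start is the edge of the RefSeq gene span. Of the 85 P450 promoters with an entry, 40 have their start at that edge.

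**Figure D4:**
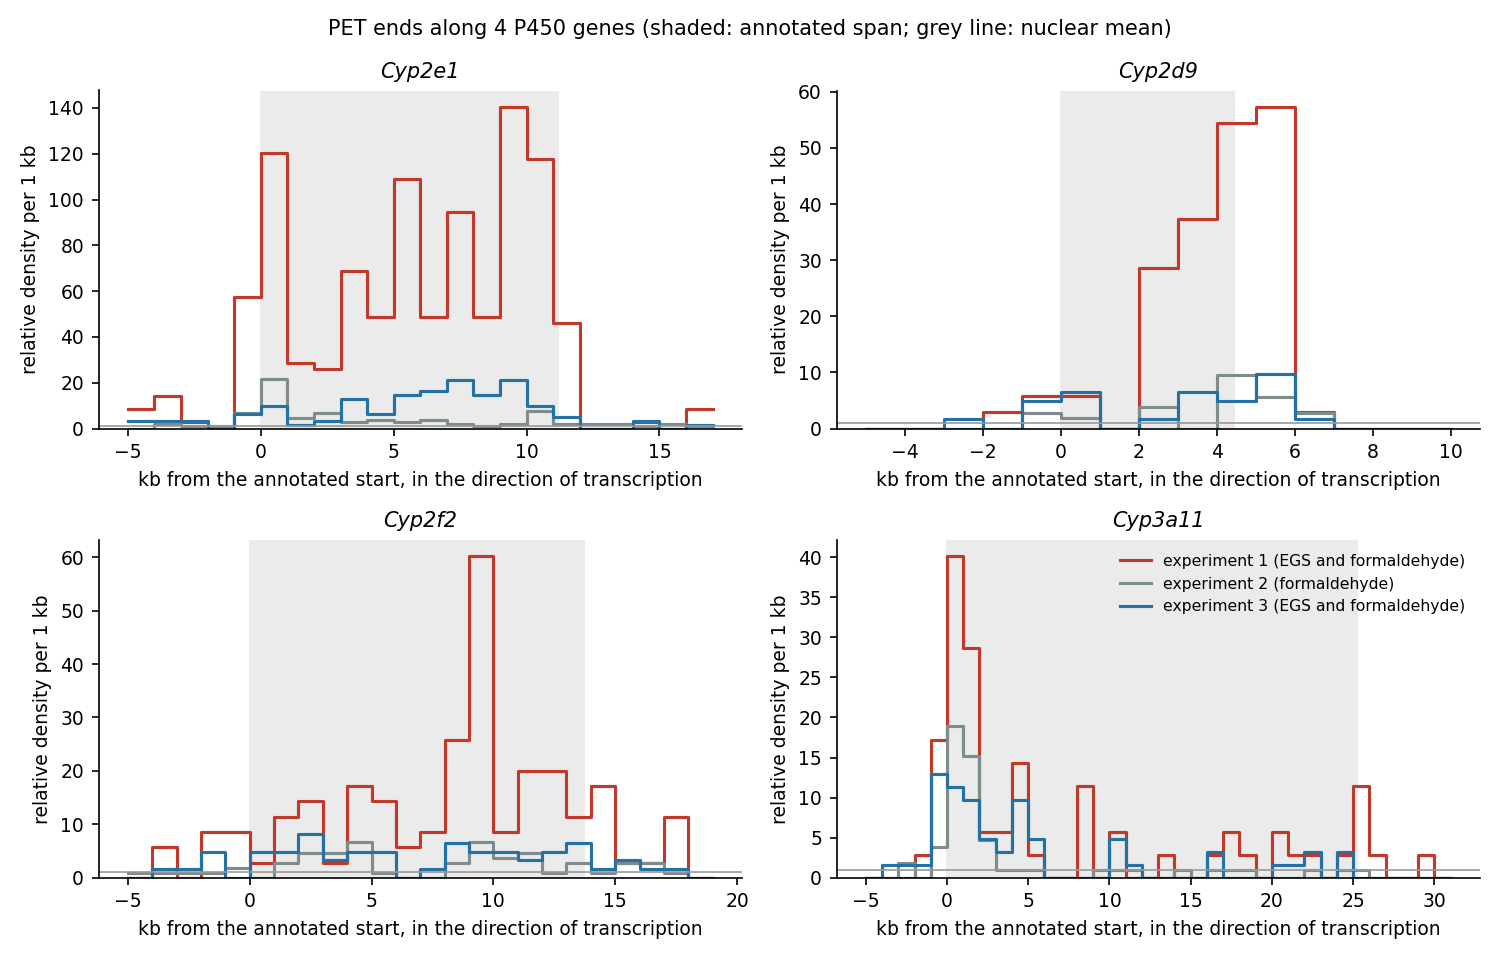
Relative density of PET ends in 1 kb steps along Cyp2e1, Cyp2d9, Cyp2f2 and Cyp3a11 in the 3 experiments, by distance from the annotated start in the direction of transcription, with the annotated span shaded and y axes that differ. Ends cover the whole of Cyp2e1, pile up past the end of Cyp2d9 and gather at the start of Cyp3a11.

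By role, the 59 genes of families 1 to 3 other than Cyp2r1, which is grouped with vitamin D, had medians of 0.861, 0.693 and 0.855. Of 20 family 4 genes, 0 were above the mean in every experiment and 2 below (medians 0.845, 0.811 and 1.02). Cyp4f14 had 5.28 (3.68 to 7.34), 1.39 (0.925 to 2.01) and 2.99 (2.08 to 4.16), and Cyp4f15 had 5.05, 1.37 and 2.14. Both belong to the Cyp4f subfamily, which hydroxylates leukotrienes and long fatty acids. The 10 sterol and steroid genes had medians of 1.22, 1.00 and 1.24, with 0 above and 0 below. Cyp17a1, the steroid 17-hydroxylase, had 2.65 (1.27 to 4.87), 1.05 (0.541 to 1.83) and 3.75 (2.43 to 5.53). In experiment 1 all 10 of its ends came from 1 linker subset. Cyp11b1, a steroidogenic gene of the adrenal cortex, had 0.976, 1.29 and 0.691, and its neighbour Cyp11b2 had 1.62, 1.07 and 0.765. Cyp19a1, the aromatase, had 1.36, 1.47 and 1.21. Cyp7b1, the oxysterol 7-hydroxylase of liver, had 2.55 (2.16 to 2.98), 0.957 (0.822 to 1.11) and 1.46 (1.24 to 1.70) over a window with 157, 179 and 159 ends. The 6 vitamin D and retinoid genes had medians of 1.55, 1.23 and 1.60.

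The retinoic acid hydroxylase gene Cyp26a1 was among the few denser in experiment 3. It held 6, 8 and 29 ends, with relative densities of 1.96 (0.718 to 4.26), 0.860 (0.371 to 1.69) and 5.35 (3.59 to 7.69). Between experiments 3 and 1 the ratio was 2.74 (1.12 to 8.06, exact conditional binomial interval). Higher in experiment 3 than in both others, by such intervals, were 3 of 91 P450 genes with 10 or more ends (3.38% of all genes), namely Cyp26a1, Cyp26b1 and Cyp4f37. Cyp26b1, which also breaks down retinoic acid, had 1.15, 1.03 and 2.72. The neighbour Cyp26c1, whose window overlaps that of Cyp26a1, had 2.17, 1.58 and 1.60.

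Higher in experiment 1 than in both others were 19 of 91 P450 genes (20.9%), beside 11.6% of all genes tested. Cyp2e1, Cyp2d9, Cyp2f2, Cyp2d26, Cyp3a11, Cyp1a2 and Cyp2a12 were among them. Higher in both dual-crosslinked experiments than in experiment 2 were 9 (9.89%): Cyp2e1, Cyp2d22, Cyp4f14, Cyp2c70, Cyp4v3, Cyp2c23, Cyp2w1, Cyp7b1 and Cyp2c29. Among all genes the share was 14.8%. Lower in both were 0 of 91, beside 1.83%. The 6 hepatocyte markers had a median ratio of experiment 1 to experiment 2 of 7.05, all genes one of 1.17 and P450 genes one of 1.52. Cyp2e1 had a ratio of 13.3 (10.3 to 17.3). Crosslinking cannot be told apart from experiment, and 2 pools against 1 give a smallest two-sided exact permutation p of 0.33, so no test is given.

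As regions, 5 of 11 P450 clusters held fewer ends than their surroundings in every experiment. Genes at most 300 kb apart formed 11 clusters with 75 genes, and each cluster was compared with the 500 kb on either side. The cluster of Cyp2s, Cyp2b and Cyp2a genes and the next one (chr7:26665227-27158564) lie partly in each other's flanks. Other regions of the genome were not compared in this way. The Cyp2c cluster (chr19:39006940-40187286, 14 genes) had 0.516 (0.435 to 0.610), 0.271 (0.241 to 0.303) and 0.325 (0.284 to 0.371) times the density of its flanks. The Cyp3a cluster (chr5:145345149-146114978, 8 genes) had 0.738, 0.350 and 0.407 times, with a stretch of 32866 bases without any end. The cluster of Cyp4x, Cyp4a and Cyp4b (chr4:115106323-115647721, 10 genes) had 0.414, 0.331 and 0.335 times. For the cluster of Cyp2s, Cyp2b and Cyp2a genes the values were 0.356, 0.590 and 0.581, and for Cyp2j 0.813, 0.698 and 0.720. In these 5 clusters the interval lay below 1 in each experiment. The cluster at chr7:26665227-27158564 (8 genes) had 0.899 (0.761 to 1.06), 0.648 (0.562 to 0.745) and 0.483 (0.407 to 0.570) times. That of Cyp1a and Cyp11a had 1.37 (1.16 to 1.62), 0.996 and 1.10, the last 2 with intervals including 1. The Cyp11b pair had 1.27, 1.15 and 0.537, with intervals including 1 each time. The Cyp4f cluster (chr17:32452697-32947415, 8 genes) had 1.36 (1.16 to 1.60), 1.03 (0.917 to 1.15) and 1.16 (1.01 to 1.32), and the pair of Cyp26c and Cyp26a had 2.32 (1.61 to 3.26) in experiment 3 and intervals including 1 in the others.

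The Cyp2d cluster (chr15:82370527-82794452, 8 genes) changed sides. Beside its flanks it was denser in experiment 1, at 1.58 times their density (1.38 to 1.81), and less dense in the others, at 0.565 (0.494 to 0.644) and 0.648 times (0.566 to 0.740). Only 44.2%, 38.1% and 34.8% of the cluster's 371, 281 and 282 ends lay in the windows of its 8 protein-coding genes. The windows of Cyp2d pseudogenes outside these held another 37.7%, 32.4% and 33.0%. Cyp2d11, which lies between the dense genes Cyp2d22 and Cyp2d10, held 0, 6 and 6 ends, and Cyp2d12 and Cyp2d34 held 3 or fewer in experiments 1 and 2.

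**Figure D5:**
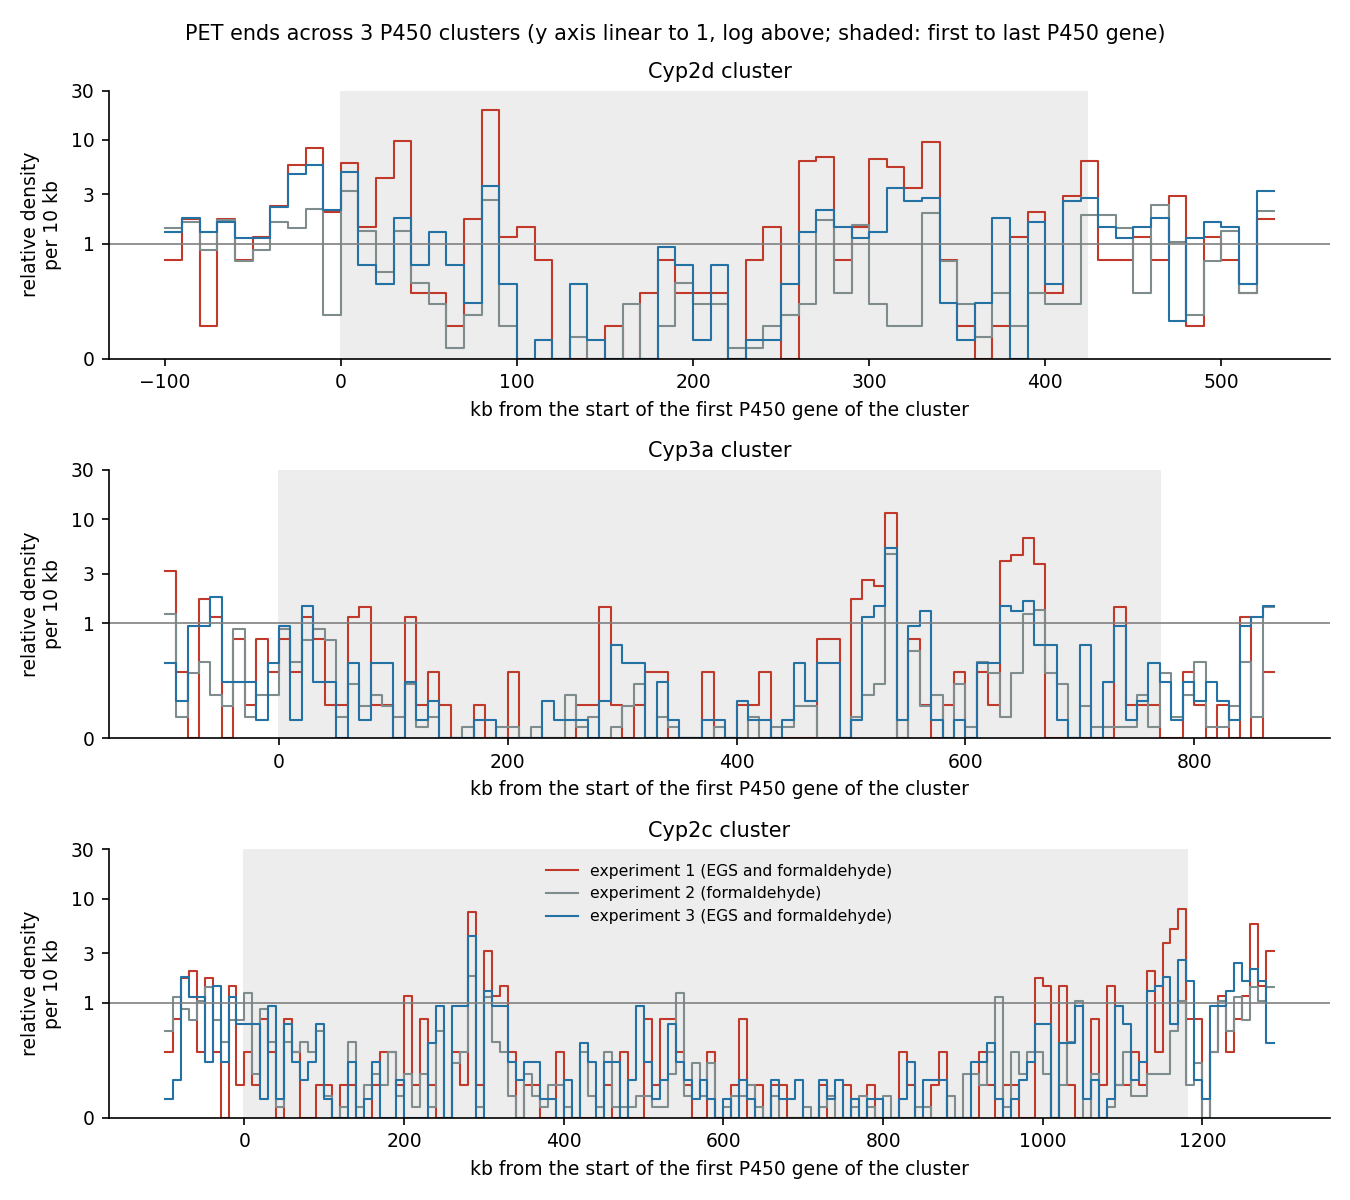
Relative density of PET ends in 10 kb steps across the Cyp2d, Cyp3a and Cyp2c clusters and 100 kb either side, by distance from the start of the first P450 gene of the cluster (y axis linear to 1 and log above, shading from the first to the last P450 gene). Each cluster shows a few narrow peaks over long stretches below the nuclear mean.

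Long-range contacts of P450 genes were few. A contact was a PET with 1 end in a gene's window and the other outside it, more than 8 kb and at most 1 Mb away. Of all nuclear PETs, 346833, 1275871 and 672203 joined different chromosomes. Only 20676, 73323 and 42084 spanned more than 8 kb of one chromosome. How many of the contacts below came from random ligation was not tested. There were 23 such PETs at 20 genes, of which 9 came from experiment 1, 0 from the single-crosslinked pool and 14 from experiment 3. Per 1000 ends in P450 windows these were 4.61 (2.11 to 8.74) and 6.77 (3.70 to 11.4) with dual crosslinking and 0 (0 to 1.43) with formaldehyde alone, where the 3 counts that a count of 0 allows come to 1.16. Over all protein-coding genes the rates were 1.53, 0.690 and 2.41. In these rates a PET counts once even where it is a contact of more than 1 gene. This lowers the rate of all genes more: in experiment 1, 800 PETs made 1400 gene contacts there, and 9 made 12 for P450 genes. A contact was seen at 20.8% of P450 genes and 22.3% of all genes, and 2 or more at 6.25% and 5.77%. The median window was 27.6 kb for P450 genes and 22.2 kb for all genes. The count was 14 without experiment 1 and 9 without experiment 3, and 15 without the 2.5 kb flanks. The distances ran from 9.45 to 933.8 kb with a median of 67.9 kb, and 15 were at most 100 kb. In 15 of the 23 the partner lay within 2.5 kb of another protein-coding gene.

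Each contact is 1 PET, and 6 P450 genes (6.25%) had 2 or more contacts, beside 5.77% of all genes. Cyp4f14 had 3 in experiment 1, of which 2 reached its neighbour Cyp4f13 over 9.45 and 11.3 kb and 1 reached Zfp563 over 172.1 kb. Cyp3a13, the Cyp3a gene outside the cluster (chr5:137892933-137925610; relative density 1.83, 1.48 and 2.54), had 2 in experiment 3. They ran 134.3 and 137.0 kb to the region of Mepce and Zcwpw1. Cyp2e1 had 2 in experiment 1, one from 454 bases past its start to a place 46.9 kb away without an annotated gene, and the other 96.8 kb to the region of Ric8a and Sirt3. Cyp1a1 had 2 in experiment 3, over 19.2 and 26.7 kb, the second reaching Edc3 and the first counting for Cyp1a2 as well. Cyp2d26 had 2, one in experiment 1 and one in experiment 3, of 44.1 and 41.9 kb. Both ended at one spot of the Cyp2d cluster, and a PET from Cyp2d40 in experiment 3 ended there too. These 3 partner ends lay within 384 bases (chr15:82747692-82748076), and the nearest annotated gene, Cyp2d40, was 11257 bases away from a window reaching 500 bases beyond them. The spot held 1, 0 and 4 ends in all, and it was picked after the contacts were seen. Contacts joining the windows of 2 P450 genes numbered 3, the last from Cyp2c66 to Cyp2c29 over 175.3 kb.

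Genes that serve the P450 enzymes had higher medians than the enzymes. Of 16 partners and regulators, 9 were above the mean in every experiment, with medians of 5.32, 1.44 and 3.40. Alas1, the first enzyme of heme synthesis, had 52.7, 5.63 and 15.7, and its value exceeded that of Cyp2e1 in experiments 2 and 3, with overlapping intervals in experiment 2. Nr1i3, which encodes the receptor CAR, had 15.0, 4.58 and 5.57, and Hnf4a, a hepatocyte transcription factor, had 11.5, 1.76 and 4.36. Por, the electron donor of microsomal P450 enzymes, had 4.37, 1.06 and 2.91, and its value in experiment 2 was not called above the mean. Ahr, the receptor that controls Cyp1a1, had 1.64, 1.24 and 1.70.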

How the data were processed

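The deposited table gives, for each PET, the chromosome and position of both ends, the experiment and the linker, with no count, depth or library. Per the submitters' processing notes, Bowtie2 and mm10 were used, with no role stated. The libraries of an experiment were pooled in the table by the authors. It held 2753554 PETs, of which 2265 with a mitochondrial end were left out, and the expected ends rest on a nuclear span of 2722202177 bases. Ends were counted over RefSeq gene spans of GRCm38.p6 with 2.5 kb flanks, and both ends of a PET counted. The windows of 22 P450 genes overlap that of another gene, and those of 10 that of another P450 gene, so such ends count more than once. All PET counts, relative densities and intervals were computed here from those deposited positions with Python 3.11.15, numpy 2.4.6, pandas 2.3.3 and SciPy 1.17.1, and figures were drawn with matplotlib 3.10.9. The counting was tested on simulated data. Ratios between experiments were computed for the 91 genes with 10 or more ends. Strands came from the promoter table.

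Genes were named with values by a rule. It took the 12 highest geometric means over the experiments and the highest gene of each listed subfamily and of most clusters. It also took the 5 lowest of those expecting 20 ends or more in each experiment, and genes with 2 or more contacts. Other named genes illustrate a role or a copy. Promoter 20-mers took the place of a planned protein comparison. The P450 set and all lists were chosen with earlier results of these data known.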

Additional observations from a re-analysis of the deposited data

How the results depend on the processing

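Changed settings gave 334 values for 31 results, of which 36 moved: a count by over 1.5 times, another value by more than its SD over the 3 experiments on the log2 scale. That SD is wide where the experiments differ, as for Cyp2e1. Those for the number of genes below the mean and for the ratio of dual to single crosslinking were chosen after seeing the data. Over experiments, values are combined as geometric means. The 9 genes above the mean in every experiment became 21 without experiment 2, and 25 when a relative density above 1 sufficed. All 9 kept the call with near-identical PETs collapsed. Leaving out an experiment cannot remove a call, because the call asks for every experiment that is kept. Of the 9, 8 kept it with PETs between chromosomes only, 7 with a 5 kb flank or with each PET counted once, 6 with no flank, the larger linker subset or the median gene as reference, and 5 with PETs within 8 kb only.

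Relying on PETs within 8 kb changed most values: genes below the mean fell from 16 to 4, and the P450 median went from 0.937 to 0. The medians of Cyp2a, Cyp2b, Cyp2c, Cyp2d, Cyp3a and Cyp4a also became 0, that of Cyp2f 14.3 and that of the remaining genes 0.951. Such a combined value is 0 as soon as 1 experiment has a value of 0. Cyp2d9, with 32.3, 6.43 and 0 from these PETs, is thus also given as 0. Relative to the median protein-coding gene, the P450 median was 0.736, that of Cyp2b 0.455 (from 0.578) and that of the remaining genes 0.898 (from 1.14). The larger linker subset gave Cyp2b 0.714. The dual-to-single ratio of 1.26 became 1.33 between chromosomes, 1.16 with the larger linker subset, 1.17 with no flank, 1.24 with a 5 kb flank, 1.23 with each PET counted once and 1.15 with the median gene as reference. The 23 contacts became 35 with partners up to 2 Mb away, 15 with no flank, and between 9 and 14 when experiment 3 or experiment 1 was left out. The cause was not tested.

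Of 176 values for 16 named genes, 10 moved by that measure, each with PETs within 8 kb only. By over 1.5 times, 25 did: 12 with PETs within 8 kb, 7 without experiment 1, 3 without experiment 2, and 1 each with no flank, a 5 kb flank and PETs between chromosomes. Without experiment 1, Cyp2e1 was at 6.27 (from 13.2), Cyp2d9 at 3.33 (from 6.11) and Cyp2a12 at 0.974 (from 1.77), below the mean. The medians of Cyp2d (from 1.77) and of the remaining genes also crossed the mean in the settings above. Cyp2e1 ranked highest in every setting run, with 36.8 from PETs within 8 kb. Collapsing removed 9157, 11 and 185 PETs and left Cyp2e1 at 13.2. No paired analysis was possible because the table pools the libraries of an experiment and carries no replicate number. Depth limits short genes: where 3 ends are expected, a count of 0 still has an interval that includes the mean.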

Other observations

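The annotation also lists 34 P450 pseudogenes, whose median relative densities were 0.634, 0.462 and 0.607. Of these, 27 had windows apart from those of the 96 protein-coding genes, with medians of 0.596, 0.457 and 0.564. Below the mean in every experiment were 6 of the 34, and 1 was above it: Cyp2d38-ps (chr15:82705575-82707270), which held 32, 19 and 13 ends. Its relative density was 13.7 (9.38 to 19.4), 2.68 (1.62 to 4.19) and 3.15 (1.68 to 5.39), and its interval overlapped that of Cyp2d9 in each experiment. The transcribed pseudogene Cyp2d13 held 43, 15 and 16 ends, with 12.0, 1.38 and 2.52. Cyp2d36-ps had 6.08, 0.725 and 2.30, and Cyp2d37-ps had 5.91, 0.30 and 2.57. How tags from the near copies of the Cyp2d cluster were placed is not known, and its part in these values was not tested.

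PETs that join the windows of P450 genes on different chromosomes numbered 4 in all.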
